A study of Mus musculus with 6 samples.

Results

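The Hippo pathway and the targets of its effector YAP were followed in bulk RNA of fibroblasts taken from the enthesis, where tendon or ligament joins bone. The 37 genes were chosen by symbol, as 21 components of the pathway and 16 targets, from the 17419 genes of the table, and all 37 were found. Ccn1 and Ccn2 were present under these symbols. The samples came from SKG mice, a strain that carries a mutated Zap70 and is prone to autoimmune arthritis, so the mice of both groups share that background. The labels name 3 samples diseased and 3 un-diseased and number them 1 to 3 in each group. The titles carry the letters NTS for the diseased and UN for the un-diseased samples, which the labels do not explain. How disease arose, the age of the mice, and whether the samples came from separate animals are not given in the sources used here, so the p-values reflect how these 6 samples scatter, a scatter that may be technical.

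Hippo is a kinase cascade that restrains growth. The kinases encoded by Stk3 and Stk4 (MST2 and MST1), with the adaptor Sav1, activate the kinases Lats1 and Lats2, whose cofactors are Mob1a and Mob1b. Active LATS phosphorylates the coactivators YAP (Yap1) and TAZ (Wwtr1) and keeps them out of the nucleus. Free YAP and TAZ bind the DNA-binding TEAD factors and switch on genes such as Ccn1, Ccn2 and Ankrd1. In fibroblasts stiff matrix and stretch are known to move YAP into the nucleus. That step acts on the protein, which RNA counts do not measure.

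Levels are CPM, counts scaled to a common library total after TMM, the trimmed mean scaling of edgeR. The libraries held 16720605 to 18290870 counts. An observed count of 0 allows up to 3 counts, or 0.147 to 0.188 CPM, for counting error only. The fibroblast markers Col1a1, Col1a2, Col3a1, Pdgfra, Pdgfrb, Dcn, Lum and Thy1 summed to 81505 to 114949 CPM in diseased and 60549 to 86778 CPM in un-diseased samples. Of these 8, 6 changed upward in diseased samples, with a median log2 fold change of 0.45 over the 8. None passed without the replicate number as a block, and 2 passed as higher with it. With the block 23.9% of all tested genes passed, 10.5% higher and 13.3% lower, and the block rests on an assumption given below. The 12 macrophage markers summed to 317, 479 and 174 CPM in diseased replicates 1, 2 and 3 and to 102, 236 and 41.4 CPM in the un-diseased ones. Of these, 0 passed without the block, and all 12 passed as higher with it. The 6 neutrophil markers summed to 45.3 to 91.5 CPM in diseased and 4.03 to 101 CPM in un-diseased samples, and 2 of the 4 tested passed as higher with the block. The 8 endothelial markers summed to 48.6 to 65.7 CPM in diseased and 58.1 to 83.5 CPM in un-diseased samples. Of the 7 tested, 1 passed without the block, and with it 3 were higher and 1 lower. The 6 cartilage markers summed to 2405 to 3274 CPM in diseased and 2799 to 3136 CPM in un-diseased samples. None of them passed with or without the block. The 6 pericyte and smooth muscle markers summed to 176 to 247 CPM in diseased and 212 to 247 CPM in un-diseased samples. Of these, 1 passed as lower with the block. The 8 skeletal muscle markers summed to 9.53 to 13.3 CPM, and none of the markers used was at 0 in all 6 samples. In bulk RNA, fewer cells of a type and less RNA per cell cannot be told apart. The part of such cells in the results below was not tested.

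By edgeR without the block, Amotl2 and Nt5e were the members that passed as higher in diseased samples, and none passed as lower. By edgeR's quasi-likelihood test over 13264 genes (adjusted p below 0.05), 1 of 20 tested components and 1 of 15 tested targets passed, while 3.73% of all tested genes did, 1.61% higher and 2.13% lower. Tead4 and Ankrd1 were too low to be tested. The median log2 fold change, diseased minus un-diseased, was -0.07 for the components and 0.00 for the targets, beside 0.02 for all tested genes. The median size of the change regardless of sign was 0.20 for the components, 0.45 for the targets and 0.27 for all tested genes. For 16 of 20 components (80%) and 7 of 15 targets (46.7%) the fold change was under 1.25 in either direction, which held for 57.1% of all tested genes. An unadjusted p below 0.05 was found for 3 of 20 components and 9 of 15 targets, and for 27.8% of all tested genes. DESeq2, which called 10.8% of its genes, called Amotl2 among the components and Nt5e, Ajuba, Arhgef17, Asap1, Axl and Fjx1 among the targets.

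Samples with the same number deviated from their group means together, so the comparison was also made with the replicate number as a block. The labels do not say that equal numbers mark pairs, so the block rests on an assumption. With the block 23.9% of all tested genes passed, 10.5% higher and 13.3% lower. Among the components Amotl2 rose and Lats1 fell, 2 of 20 or 10%. Among the targets Nt5e, Ajuba and Arhgef17 rose and Fjx1, F3, Asap1, Axl and Crim1 fell, 8 of 15 or 53.3%. So the targets that passed went both ways. The block calls of Amotl2, Nt5e, Fjx1 and F3 held with each pair of samples left out in turn, as did those of 6.33% of all tested genes. Without pair 3, Ajuba and Asap1 no longer passed, with adjusted p of 0.0796 and 0.0653. Lats1, Crim1 and Arhgef17 no longer passed without pair 2 (0.142, 0.0729 and 0.129) or without pair 3 (0.22, 0.178 and 0.062). Axl passed in none of the 3 fits that left out a pair, with adjusted p of 0.0944, 0.132 and 0.0755.

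**Figure D1:**
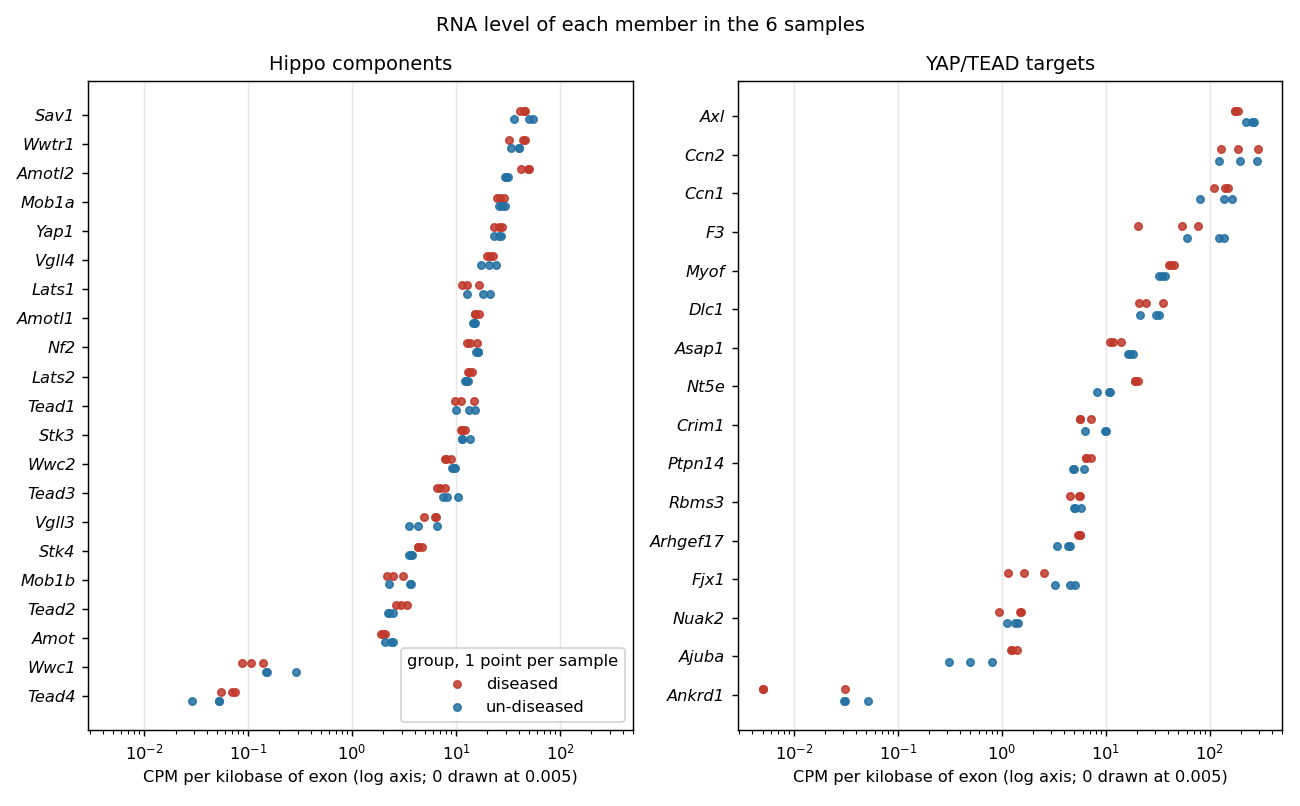
RNA level of each of the 37 members, as CPM per kilobase of exon on a log axis, with 1 point per sample for diseased (red) and un-diseased (blue) samples and values of 0 drawn at 0.005. Levels within a gene lie close together compared with the range over genes, from Axl at a mean of 214 to Ankrd1 at 0.024.

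Neither coactivator passed in either comparison. Yap1 had 97.6, 108 and 116 CPM in diseased replicates 1, 2 and 3 and 96.3, 107 and 113 CPM in the un-diseased ones. Wwtr1, which encodes TAZ, had 155, 222 and 209 CPM in the diseased and 160, 194 and 192 CPM in the un-diseased samples. For both genes the groups overlapped, and replicate 1 was lowest in both groups. The log2 fold change was 0.02 (SE 0.11, adjusted p = 0.902 by edgeR) for Yap1 and 0.10 (SE 0.16, adjusted p = 0.701) for Wwtr1. Per kilobase of exon, Wwtr1 made up 58.1% to 64.2% of the summed level of these 2 genes in each of the 6 samples.

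Of the TEAD factors, which bring YAP and TAZ to DNA, Tead1 and Tead3 held most of the RNA. Per kilobase of exon Tead1 took 43.9% to 60.4% of the family's summed level, Tead3 26.4% to 46%, Tead2 9.31% to 14.9% and Tead4 at most 0.344%. Tead1 was the larger share in 5 samples, and Tead3 (46%) exceeded Tead1 (43.9%) in un-diseased replicate 1. These shares depend on the lengths used, 10051 bases of exon for Tead1 and 3080 for Tead3. Before division by length, the means over the 6 samples were 125 CPM for Tead1 and 24.5 CPM for Tead3. Tead2 had 10.3, 11.8 and 9.17 CPM in diseased and 7.97, 8.58 and 7.68 CPM in un-diseased samples. These groups did not overlap, yet its log2 fold change of 0.37 (SE 0.15) did not pass, at an adjusted p of 0.158 (edgeR), or 0.0783 when blocked. Tead4 had 4, 4 and 5 counts in diseased and 2, 3 and 3 counts in un-diseased samples.

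Of the core kinases, Lats1 fell with the block and none passed without it. Lats1 had 83.9, 120 and 92.3 CPM in diseased and 92.2, 154 and 132 CPM in un-diseased replicates 1, 2 and 3. The groups overlapped, but each diseased sample lay below the un-diseased sample of its number. The log2 fold change of Lats1 was -0.35 (SE 0.21, adjusted p = 0.307 by edgeR) and -0.33 with the block (SE 0.10, adjusted p = 0.0484). The authors' deposited table gives Lats1 a q-value of 0.391. Lats2, itself a known YAP target that feeds back on the pathway, changed by 0.11 (SE 0.09, adjusted p = 0.432). Stk3 took 70% to 78.3% of the summed level of Stk3 and Stk4 per kilobase of exon. Stk4 had 25.2, 22.9 and 22.9 CPM in diseased and 19.5, 20.2 and 18.8 CPM in un-diseased samples, with no overlap and a log2 fold change of 0.28 that did not pass (SE 0.10, adjusted p = 0.133).

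Sav1, the adaptor of the MST kinases, had a mean level of 45.7 CPM per kilobase of exon over the 6 samples, the highest of the components. In diseased samples alone Amotl2 was higher, at 47.4 against 44.2. Sav1 had 105, 116 and 114 CPM in the diseased and 90.1, 128 and 140 CPM in the un-diseased samples, so the diseased samples lay within the un-diseased range. Mob1a had 88.2% to 92% of the summed level of Mob1a and Mob1b per kilobase of exon. These are close paralogs, and their counts are uncertain where reads were shared between them. The log2 fold changes were -0.10 for Sav1, -0.05 for Mob1a and -0.31 for Mob1b, and none passed in either comparison.

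The upstream and restraining components did not pass either, apart from Amotl2. Nf2 encodes merlin, a membrane scaffold that brings LATS to its activators, Wwc1 encodes its partner KIBRA, and Wwc2 encodes a relative of KIBRA. Nf2 had 68.4, 79.8 and 65.3 CPM in diseased and 78.4, 83 and 83.2 CPM in un-diseased samples (log2 fold change -0.20, SE 0.11). Wwc2 had 68.7, 78 and 68.3 CPM against 79.6, 84.2 and 82.4 CPM (-0.20, SE 0.10), and its groups did not overlap. Wwc1 was under 1.4 CPM in each sample, with 8, 10 and 9 counts in diseased and 13, 11 and 21 counts in un-diseased samples. Its groups did not overlap either. The log2 fold change of Wwc1, -0.83 (SE 0.41, adjusted p = 0.231 by edgeR), was the lowest of the tested components and did not pass. Vgll3 and Vgll4 encode cofactors that bind TEAD in place of YAP, and their log2 fold changes were 0.28 and 0.04.

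The angiomotins hold YAP in the cytoplasm and at junctions, and Amotl2 is also a known target of YAP. Amotl2 (gene 56332, GRCm38 chromosome 9 from 102717091 to 102733418) had 225, 190 and 220 CPM in diseased and 133, 136 and 141 CPM in un-diseased samples. Each diseased sample lay above each un-diseased one, and diseased replicate 2 was the lowest of its group. The diseased mean was 212 ± 19 CPM and the un-diseased mean 137 ± 4.2 CPM (SD, n = 3 samples each), a log2 fold change of 0.63 (SE 0.11, adjusted p = 0.0312 by edgeR). Amot and Amotl1 changed by -0.22 (SE 0.12) and 0.08 (SE 0.09), which did not pass. Amotl2 took 74.8%, 69.5% and 74.1% of the angiomotin level per kilobase of exon in the diseased and 63.3%, 64.7% and 64.4% in the un-diseased samples.

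The call of Amotl2 depended on single samples. It was lost without diseased replicate 1 (adjusted p = 0.0673), diseased replicate 3 (0.15), un-diseased replicate 2 (0.112) or un-diseased replicate 3 (0.0884), while the log2 fold change without any single sample lay between 0.59 and 0.70. The same 4 samples decided the call of Nt5e, with adjusted p by edgeR of 0.0522, 0.116, 0.071 and 0.0593. Over the whole table these 4 fits called 85, 5, 10 and 37 genes, in place of 495.

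Windows around RefSeq starts of many members hold the core of the TEAD motif. The motif was searched as CATTCC or its reverse complement GGAATG, with overlaps counted. Each window ran from 250 bases before to 50 bases after a RefSeq start (GRCm38.p6). Some of these starts lie inside the RefSeq gene, and so do the matches of Amotl2, Lats2, Sav1 and Vgll4 and some of those of Tead3. The match of Lats2 lies 4 bases after its start. Of the members, 28 had an entry in the promoter table. Not searched, for lack of an entry, were the targets Arhgef17, Asap1, Ccn2, Dlc1, Fjx1 and Nuak2 and the components Stk3, Tead1 and Tead4. At least 1 match was found for 10 of 18 components (55.6%) and 6 of 10 targets (60%), beside 14.3% of the 10570 tested genes with an entry and 16.6% of all 27025 genes. Of the other pathway genes read here 3 of 32 (9.38%) had a match, and of the other published targets 1 of 12 (8.33%). The matched components were Amotl2, Lats2, Mob1a, Sav1, Tead3, Vgll3, Vgll4, Wwc2, Wwtr1 and Yap1, and the matched targets Ajuba, Ankrd1, Axl, Ccn1, Crim1 and Ptpn14. No match was found in this window for Nt5e or F3. In GENCODE M21 the 250 bases before the start of Nt5e overlap a UTR exon of Nt5e. Those of F3 overlap an exon of a non-coding transcript of Gm43823. A match is a description of letters and does not show that a TEAD factor binds there.

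Of the genes with a match, those that passed in either comparison, both coactivators, and Ccn1 and Ankrd1 as textbook targets are given here. Each line is 30 bases on the gene's strand, 5′ to 3′, with the motif in capitals.
Amotl2, chr9:102717727-102717756, plus strand: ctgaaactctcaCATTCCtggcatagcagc
Ajuba, chr14:54577830-54577859, minus strand: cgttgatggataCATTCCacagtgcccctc
Ajuba, chr14:54577808-54577837, minus strand: tgcccctccgcgCATTCCaactgtaaacaa
Axl, chr7:25788949-25788978, minus strand: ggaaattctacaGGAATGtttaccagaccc
Crim1, chr17:78200157-78200186, plus strand: agggcgggggggGGAATGaggtaggatggg
Yap1, chr9:8004720-8004749, minus strand: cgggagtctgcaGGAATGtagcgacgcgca
Wwtr1, chr3:57576029-57576058, minus strand: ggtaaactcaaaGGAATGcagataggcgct
Ankrd1, chr19:36120037-36120066, minus strand: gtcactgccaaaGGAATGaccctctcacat
Ankrd1, chr19:36119950-36119979, minus strand: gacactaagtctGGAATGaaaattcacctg

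The motif of Amotl2 begins 65 bases before the RefSeq start used here. That start is internal, since the RefSeq gene begins at 102717091, so the motif lies inside the gene. GENCODE M21 annotates its site as a UTR exon of Amotl2. The motifs of Ankrd1 lie in a UTR exon of one of its GENCODE M21 transcripts. The motifs of Ajuba, Axl, Crim1, Yap1 and Wwtr1 lie outside genes annotated there. Ccn1 has its match 103 bases before the start, and its 250 bases upstream, chr3:145649986-145650235 on the minus strand, lie outside annotated genes and are shown whole.
Ccn1: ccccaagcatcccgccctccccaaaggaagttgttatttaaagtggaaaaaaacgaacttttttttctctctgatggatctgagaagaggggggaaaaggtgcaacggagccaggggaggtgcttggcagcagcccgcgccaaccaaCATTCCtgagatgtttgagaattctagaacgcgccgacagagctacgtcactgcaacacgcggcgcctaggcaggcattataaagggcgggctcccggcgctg

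**Figure D2:**
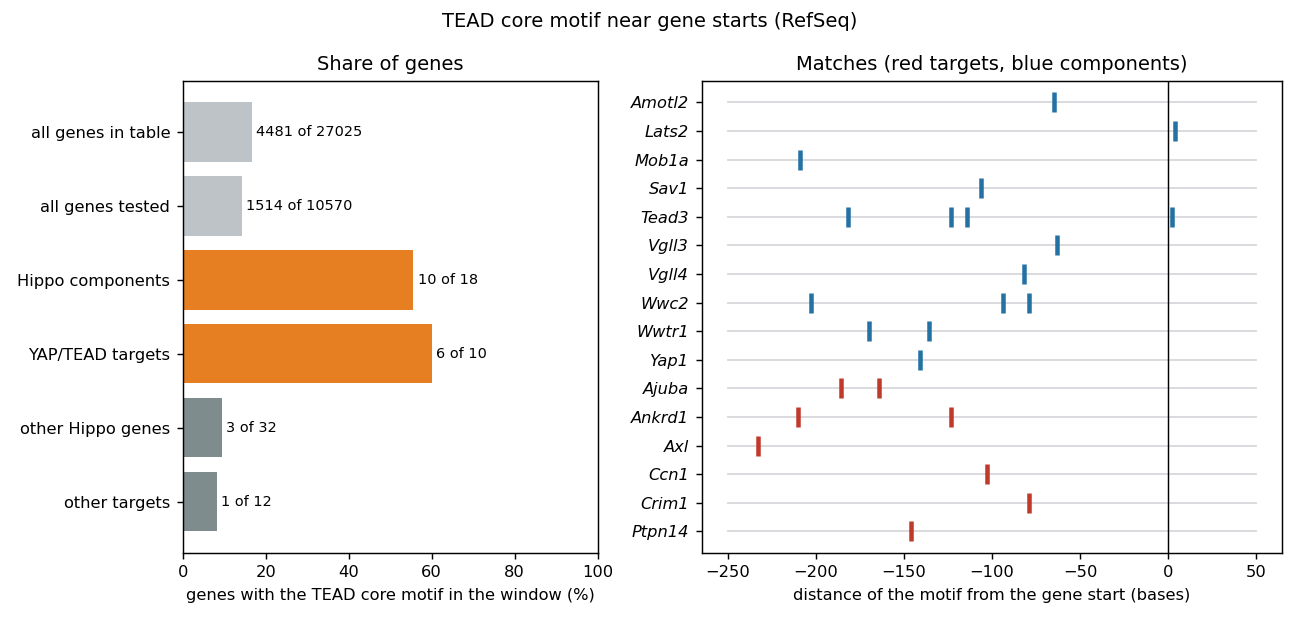
Left, the share of genes with the TEAD core motif between 250 bases before and 50 bases after a RefSeq start, as bars with counts. Right, the distance in bases from the start of each match for the 10 matched components (blue) and 6 matched targets (red), which spread over the window; genes with several RefSeq starts have a mark for each.

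Among the targets, Ccn1 and Ccn2, secreted matricellular proteins and the usual readouts of YAP, were abundant and did not pass. Ccn1 had 222, 306 and 285 CPM in diseased and 163, 276 and 334 CPM in un-diseased samples. Its groups overlapped, and the log2 fold change was 0.07 (SE 0.26, adjusted p = 0.875 by edgeR). Ccn2 had 805, 521 and 355 CPM in diseased replicates 1, 2 and 3 and 343, 542 and 795 CPM in the un-diseased ones. The groups thus covered the same range, with the highest diseased sample and the lowest un-diseased sample both numbered 1. Its log2 difference within numbers 1, 2 and 3 was 1.23, -0.06 and -1.16, and its mean change was 0.00 (SE 0.37, adjusted p = 0.998). The SE of Ccn2 leaves a wide range of changes undecided. Ankrd1, a nuclear ankyrin-repeat protein of muscle and stretched cells, had 0, 1 and 0 counts in diseased and 2, 1 and 1 counts in un-diseased samples, which is under the limit of 3 counts, so no fold is given.

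Nt5e (gene 23959, chromosome 9 from 88327609 to 88372089) encodes CD73, the cell-surface enzyme that makes adenosine from AMP. It had 81.5, 77.3 and 76 CPM in diseased and 43.3, 33.1 and 44.3 CPM in un-diseased samples. The diseased samples lay close together and above each un-diseased one. The diseased mean was 78.3 ± 2.91 CPM and the un-diseased mean 40.2 ± 6.18 CPM (SD, n = 3 samples each), a log2 fold change of 0.96 (SE 0.13, adjusted p = 0.0247 by edgeR). For Nt5e the authors' deposited table, which divides un-diseased by diseased, gives a log2 ratio of -0.95 with a q-value of 3.48e-07.

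Ajuba and Arhgef17 rose by edgeR with the block and by DESeq2, and did not pass by edgeR on all 6 samples without the block. Ajuba encodes a LIM protein that inhibits LATS at junctions under tension. It had 4.74, 4.23 and 4.15 CPM in diseased and 2.71, 1.06 and 1.67 CPM in un-diseased samples, without overlap. Its log2 fold change was 1.26 (SE 0.33, adjusted p = 0.0786 by edgeR; 0.0125 with the block). Arhgef17, which encodes a guanine nucleotide exchange factor, had 58.8, 59.4 and 56.7 CPM in diseased and 44.9, 35.6 and 47.4 CPM in un-diseased samples, again without overlap. It changed by 0.45 (SE 0.12, adjusted p = 0.0809; 0.0246 with the block). The authors' deposited table gives q-values of 0.0177 for Ajuba and 0.0501 for Arhgef17.

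Fjx1 and F3 had the lowest fold changes of the targets. Fjx1 encodes a secreted protein related to the four-jointed kinase of the fly, which acts on the Fat and Dachsous cadherins. It had 3.62, 8.03 and 5.13 CPM in diseased and 10.1, 16 and 14.1 CPM in un-diseased samples, and the groups did not overlap. The log2 fold change of Fjx1 was -1.26 (SE 0.30, adjusted p = 0.0628 by edgeR) and -1.30 with the block (SE 0.15, adjusted p = 0.00231). In the authors' deposited table its q-value is 0.0033.

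F3 encodes tissue factor, the cell-surface trigger of clotting. It had 38.2, 145 and 101 CPM in diseased and 113, 232 and 255 CPM in un-diseased replicates 1, 2 and 3. Replicate 1 was lowest in both groups, so the groups overlapped, while the log2 difference within numbers was -1.55, -0.68 and -1.34. F3 changed by -1.08 (SE 0.48, adjusted p = 0.193 by edgeR) and by -1.19 with the block (SE 0.16, adjusted p = 0.00321). The block thus lowered the SE of F3 while its fold change moved little. In the authors' deposited table the q-value of F3 is 0.311.

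Axl, Asap1 and Crim1 fell with the block by smaller amounts. Axl, a receptor tyrosine kinase for Gas6, had a mean of 214 CPM per kilobase of exon over the 6 samples. Ccn2 was close at 202, and in diseased samples alone Ccn2 was the higher, at 202 against 179 for Axl. Axl had 795, 760 and 745 CPM in diseased and 1101, 1150 and 949 CPM in un-diseased samples, with no overlap and a log2 fold change of -0.48 (SE 0.14, adjusted p = 0.0913 by edgeR; 0.0319 with the block). Macrophages can express Axl as well, and their markers were higher in the diseased sample of each number. Asap1, a regulator of Arf GTPases and focal adhesions, had 76.1, 90.6 and 70.9 CPM against 106, 119 and 111 CPM. It changed by -0.50 (SE 0.12, adjusted p = 0.0616; 0.00887 with the block). Crim1, a membrane protein that binds BMPs, had 34, 43 and 33.8 CPM against 37.9, 60.4 and 58.7 CPM. Its groups overlapped, and it changed by -0.50 (SE 0.19, adjusted p = 0.151; 0.0315 with the block). The authors' deposited table gives q-values of 0.00377 for Axl, 0.0109 for Asap1 and 0.145 for Crim1.

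**Figure D3:**
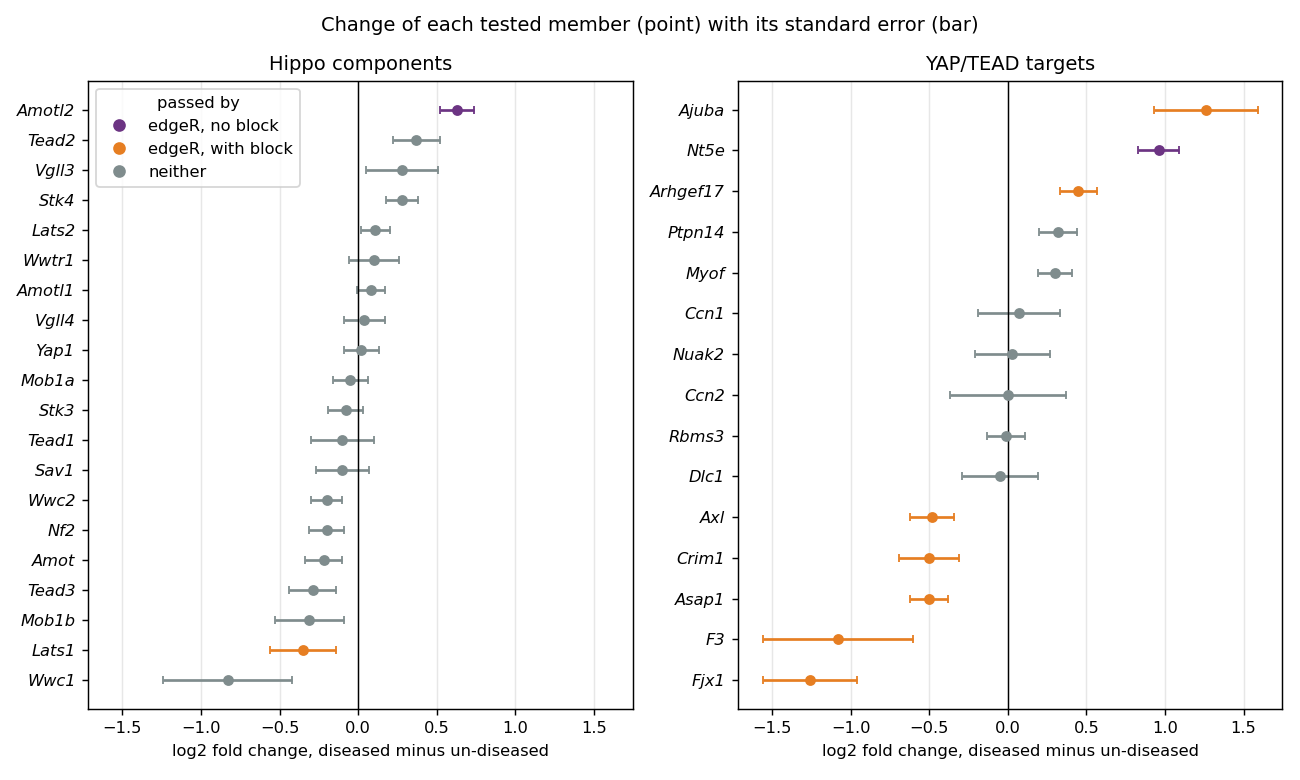
Log2 fold change, diseased minus un-diseased, of the 20 tested components and 15 tested targets (points) with its standard error (bars). Amotl2 and Nt5e (purple) passed by edgeR without the block, and 8 more members (orange) passed by edgeR with the block and not without it, 5 of which DESeq2 also called without a block.

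The remaining 5 tested targets did not pass in either comparison. Myof, a membrane repair protein, had 323, 301 and 294 CPM in diseased and 251, 232 and 264 CPM in un-diseased samples, and the phosphatase gene Ptpn14 had 69.1, 77.7 and 69.2 CPM against 52, 53.7 and 67.2 CPM. Neither gene's groups overlapped, and the log2 fold changes were 0.30 (SE 0.11, adjusted p = 0.145 by edgeR) and 0.32 (SE 0.12, adjusted p = 0.152). Dlc1, a GTPase-activating protein, Rbms3, an RNA-binding protein, and the kinase gene Nuak2 changed by -0.05, -0.01 and 0.03. Counted over the tested members, 8 of 20 components and 8 of 15 targets had groups that did not overlap, as did 31.9% of all tested genes. The 8 components were higher in diseased samples in 5 cases and lower in 3, and the 8 targets likewise, against 16.5% of all tested genes higher and 15.4% lower. The sign was the same within all 3 numbers for 16 components, 6 higher and 10 lower, and for 10 targets, 5 higher and 5 lower. Of all tested genes 60.7% kept 1 sign, 30.7% higher and 30.1% lower.

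**Figure D4:**
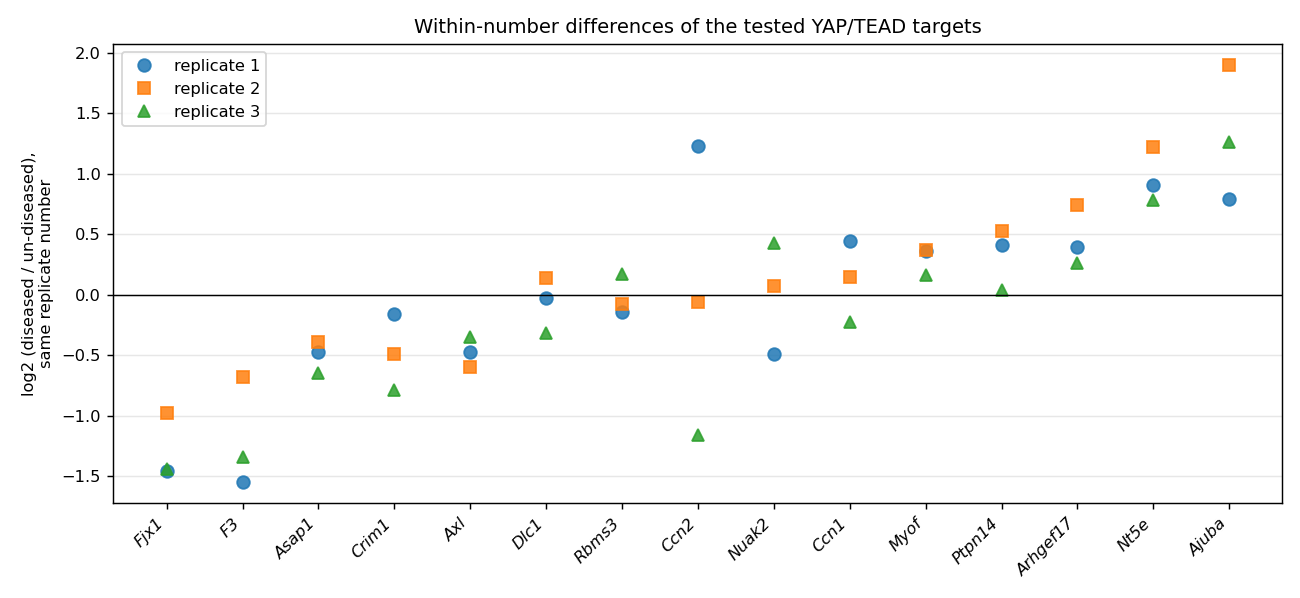
Log2 ratio of the diseased to the un-diseased sample with the same replicate number for the 15 tested targets, with 1 symbol per number. Nt5e lies between 0.78 and 1.22 and Fjx1 between -1.46 and -0.98, while Ccn2 runs from 1.23 for number 1 to -1.16 for number 3.

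Other genes upstream in the pathway were read from the same fits. Of 45 listed, 42 were in the table and 38 were tested. None of these passed by edgeR or by DESeq2, and 5 of 38 had an unadjusted p below 0.05, as did 27.8% of all tested genes. With the block 2 rose and 4 fell, 15.8% of the 38, against 23.9% of all tested genes. Map4k4, a kinase that can activate LATS, fell by 0.69 on the log2 scale with the block (adjusted p = 0.00748), from 425, 758 and 657 to 268, 525 and 356 CPM. The LIM gene Limd1 (-0.46) and Frmd6 (-0.56), a FERM-domain relative of merlin, also fell with the block, and the cadherin gene Dchs1 (0.39) rose. Without pair 3, Map4k4 and Frmd6 did not pass (adjusted p = 0.0511 and 0.13). Limd1 did not pass without pair 2 (0.103) or 3 (0.136), and Dchs1 without any of the 3 pairs (0.0615, 0.174 and 0.0666).

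Of 20 further genes from published YAP target sets, all tested, Ddah1 rose and Igfbp3 fell, 10% of the list, where 1.61% of all tested genes rose and 2.13% fell. Ddah1, an enzyme that breaks down an inhibitor of nitric oxide synthesis, had 20, 35.1 and 28.1 CPM in diseased and 13.9, 13.9 and 10.4 CPM in un-diseased samples (log2 fold change 1.12, SE 0.22, adjusted p = 0.0424 by edgeR). Igfbp3, which binds insulin-like growth factors, had 48, 55.2 and 65.5 CPM against 139, 239 and 197 CPM (-1.77, SE 0.21, adjusted p = 0.0247). Igfbp3 did not pass without diseased replicate 3 (adjusted p = 0.116), un-diseased replicate 2 (0.071) or un-diseased replicate 3 (0.0593). Ddah1 did not pass without diseased replicate 2 (0.0652) or 3 (0.165), or without un-diseased replicate 2 (0.105) or 3 (0.118). With the block 3 of the 20 rose and 4 fell, 35% of the list against 23.9% of all tested genes.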

How the data were processed

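RNA was measured in 3 diseased and 3 un-diseased fibroblast samples. The deposited table holds estimated counts per gene. The tools DESeq2 1.4.5, HISAT2 2.0.4 and RSEM 1.3.1 are named, without role or order, per the submitters' processing notes, which also name GRCm38. Non-whole values made up 9.6% of the counts, and rounding preceded each test. The authors' deposited log2 ratio of un-diseased over diseased, with its p-value and q-value, served only for comparison.

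Genes were kept by filterByExpr (least count 10), scaled with TMM and tested by edgeR 4.0.16 (R 4.3.3), the quasi-likelihood test with Benjamini-Hochberg adjustment over 13264 genes and a threshold of 0.05. SE is the fold change divided by the root of the F statistic. Levels between genes are CPM per kilobase of exon, from the union of exons of coding transcripts in GENCODE M21 (GRCm38). That union can be longer than the transcript expressed, so shares and rankings between genes depend on it. Within-number differences used CPM plus 0.1. The steps were run on simulated counts drawn without an effect of the replicate number, so that run does not show how the block behaves where there is one. All 37 members are accounted for. Values per sample were given for members that passed with or without the block, for Yap1, Wwtr1, Ccn1, Ccn2 and Ankrd1, and for the highest member of each list per length. From the other lists at most 5 genes that passed were named, by smallest adjusted p. An item among them is not reported here. Members and lists were chosen with earlier results of these data known, and some members with values per sample beyond this rule, such as Tead2, Stk4 and Myof, were chosen after their values were seen.

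The replicate numbers in the labels were taken to pair the samples, since deviations from the group means correlated at 0.487, 0.578 and 0.276 for numbers 1, 2 and 3. Between samples of different numbers the correlations ran from -0.531 to 0.137. Deviations within a group of 3 cancel out, so these correlations alone cannot show that the samples were paired. No samples of a group looked like one library deposited again (chi-square divided by genes 25.3 to 61.7). Alternatives were the block, leaving out samples or pairs, DESeq2 1.42.0, limma-voom (limma 3.58.1), RLE or upper-quartile factors, 2 other count filters and a threshold of 0.01.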

Additional observations from a re-analysis of the deposited data

How the results depend on the processing

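With the replicate block 3167 genes passed over the whole table, 2 components, 8 targets, 6 other pathway genes and 7 other targets, in place of 495, 1, 1, 0 and 2. With the block and without a pair these counts ran from 1009 to 2569 (2083 without pair 2), 1 to 2, 3 to 7, 0 to 3 and 2 to 7. Without single samples and with no block they ran from 5 to 1075, 0 to 1, 0 to 5, 0 to 2 and 0 to 2. The upper count came without un-diseased replicate 1, where Ajuba, Nt5e, Asap1, Crim1 and Fjx1 passed among the targets. DESeq2 called 1511 genes and 6 targets. Keeping genes with at least 1 count gave 2 targets, Nt5e and Fjx1. Upper-quartile factors gave 1 other pathway gene, and limma-voom gave 1 other target. Over the whole table the upper-quartile factors called 417 genes higher and 288 lower, against 213 and 282. At a threshold of 0.01, 4 genes passed over the whole table and 0 in each of the 4 lists, by the stricter threshold itself. The cause of the other shifts was not tested.

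Changes of sign were seen for members with fold changes near 0. Upper-quartile factors gave 0.00 for Stk3, 0.03 for Mob1a, 0.03 for Dlc1 and 0.07 for Rbms3. For Ccn2 RLE factors, DESeq2 and limma-voom each gave -0.01, and for Nuak2 limma-voom gave -0.02. Leaving out single samples gave -0.04 to 0.09 for Yap1, -0.29 to 0.04 for Tead1, -0.13 to 0.01 for Stk3, -0.27 to 0.03 for Sav1, -0.11 to 0.01 for Mob1a and -0.08 to 0.16 for Vgll4. It gave -0.18 to 0.30 for Ccn1, -0.35 to 0.34 for Ccn2, -0.09 to 0.22 for Nuak2, -0.30 to 0.10 for Dlc1 and -0.07 to 0.08 for Rbms3. Leaving out pairs with the block gave -0.24 to 0.04 for Sav1, -0.09 to 0.12 for Vgll4, -0.06 to 0.30 for Ccn1 and -0.62 to 0.59 for Ccn2. It gave -0.21 to 0.24 for Nuak2 (-0.03 without pair 2), -0.17 to 0.06 for Dlc1 and -0.11 to 0.03 for Rbms3 (0.02 without pair 2). Under the alternatives 479 fold changes of members kept direction and side of the threshold, 40 changed sign, 32 kept direction and came to pass, and 8 kept direction and no longer passed.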

Other observations

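Other known YAP targets that passed by edgeR with the replicate block, and neither by edgeR nor by DESeq2 without it, also went both ways. Thbs1, a matrix glycoprotein, had 216, 1006 and 349 CPM in diseased and 441, 1505 and 1235 CPM in un-diseased replicates 1, 2 and 3. It fell by 1.14 on the log2 scale with the block (adjusted p = 0.0103 by edgeR), a call that was kept without each pair. The groups of Thbs1 overlapped, since replicate 2 was highest in both, and without the block its adjusted p was 0.315. The endothelin gene Edn1 fell with the block at -1.08 from levels of at most 4.76 CPM, and Tagln, an actin-binding protein, rose with the block at 0.58. The block calls of Edn1 and Tagln were lost with any pair left out, at adjusted p of up to 0.16 and 0.1.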
